A study of Xenopus laevis with 24 samples.

Results

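Among the genes that rise while the frog foregut forms, 46 had higher deposited expression values when retinoic acid signalling was blocked with BMS493. With rfx6 knocked down, any excess of theirs stayed under a set limit. In read counts, 6 of the 46 did not pass a test for a higher level with BMS493 or had too few reads for it. The 46 were chosen by measured values out of 44478 genes in the deposited expression table. Levels were TPM (a transcript's share of the library, corrected for transcript length), averaged over 3 libraries and set on the scale log2(mean TPM + 1), which understates the change of genes with low levels. A member had to be at least 1 log2 unit higher in NF33 than in NF25 controls and to lie less than 1 unit lower in NF38 controls than in NF33 controls. It also had to be at least 0.8 units higher in BMS493 explants than in controls at NF33, with a difference under 0.8 units between rfx6 morphants and controls at NF33. A limit of 300 genes was not reached.

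The tissue was Xenopus laevis foregut, explants of mesoderm and endoderm cut from wild-type embryos of the stock NXR_0031 at Nieuwkoop and Faber stage 15 (NF15) and kept at 15 °C. They were harvested at NF25, NF33 or NF38, and each library came from a pool of 8 explants. The BMS493 groups were wild-type explants given 250 nM BMS493 straight after dissection and harvested at NF25 or NF33. The rfx6 morphant groups came from embryos injected at cleavage with 2.5 ng of an oligonucleotide that blocks translation of rfx6, harvested at NF25, NF33 or NF38. The control groups carried 2.5 ng of a morpholino with 5 mismatched bases, were kept in 0.1% DMSO and were harvested at NF25, NF33 or NF38. Whether BMS493 explants also carried the mismatch oligonucleotide, and whether morphants were kept in DMSO, is not given in the labels, so effects of these additions and of the treatments cannot be told apart. The samples hold no BMS493 group at NF38. A morpholino blocks translation without deleting the gene, and how much Rfx6 protein remained was not analysed here.

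Retinoic acid is made from vitamin A by dehydrogenases in the mesoderm and acts on nearby endoderm through nuclear receptors (RAR with RXR) that sit on target genes. Without ligand these receptors recruit corepressors, and with ligand they recruit coactivators. BMS493 is an inverse agonist of RAR, which strengthens the bound corepressor. In vertebrate embryos the signal sets position along the gut tube and is needed for pancreas and lung. Rfx6 is a winged-helix transcription factor of the gut endoderm, known from mice and humans for its part in the development of islet and enteroendocrine cells.

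The 24 libraries held 19433955 to 31005048 counts each, in 8 groups of 3. Log2(CPM + 1) of libraries in the same group correlated across genes at 0.997 to 0.998, and of libraries in different groups at 0.888 to 0.992. The deposited tables name genes by number and do not pair the numbers with symbols, and 0 of the 46 members matched the 44456 genes of a RefSeq table. The members' functions, their sequences and the markers that would check the tissue are therefore not given. Genes are named here by identifier, at most 2 higher and 2 lower in each comparison. Xenopus laevis carries near-identical gene copies from an ancient genome duplication, and a value of 1 identifier can share reads with its copy. In whole explants, fewer cells of a type and less RNA per cell cannot be told apart.

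In controls 2236 genes had the rising course, and the members were a small part of them. BMS493 left 1863 of these within 0.8 log2 units of controls at NF33, and 310 stood at least 0.8 lower. Another 63 stood at least 0.8 higher, of which 17 were left out because rfx6 morphants passed 0.8 as well. Among all 44478 genes, 633 stood at least 0.8 lower with BMS493 at NF33 and 866 at least 0.8 higher. The other 2190 rising genes are used below as the nearest set for comparison. The limit of 0.8 fell within a continuous range of values, as 12 members lay within 0.1 above it and 23 rising genes between 0.7 and 0.8 with rfx6 under the limit. The member just inside, XBXL10_1g23846, had 6.03 TPM in BMS493 explants and 3.01 TPM in controls (0.81 log2 units), and the gene just outside, XBXL10_1g35881, had 10.9 and 5.86 TPM (0.80).

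The members started low and ended at moderate levels. The median member had 0.875 TPM in BMS493 explants, 0.948 TPM in rfx6 morphants and 0.673 TPM in controls at NF25, and 26 of 46 were under 1 TPM in NF25 controls. At NF33 the median was 12.0 TPM in BMS493 explants, 4.56 TPM in morphants and 5.00 TPM in controls. At NF38 it was 14.2 TPM in morphants and 10.6 TPM in controls. Summed over members, the level at NF33 was 1614 ± 50.9 TPM in BMS493 explants, 881 ± 20.7 TPM in morphants and 698 ± 9.98 TPM in controls (SD, n = 3). Of the BMS493 sum, 56.4% came from 5 members.

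**Figure D1:**
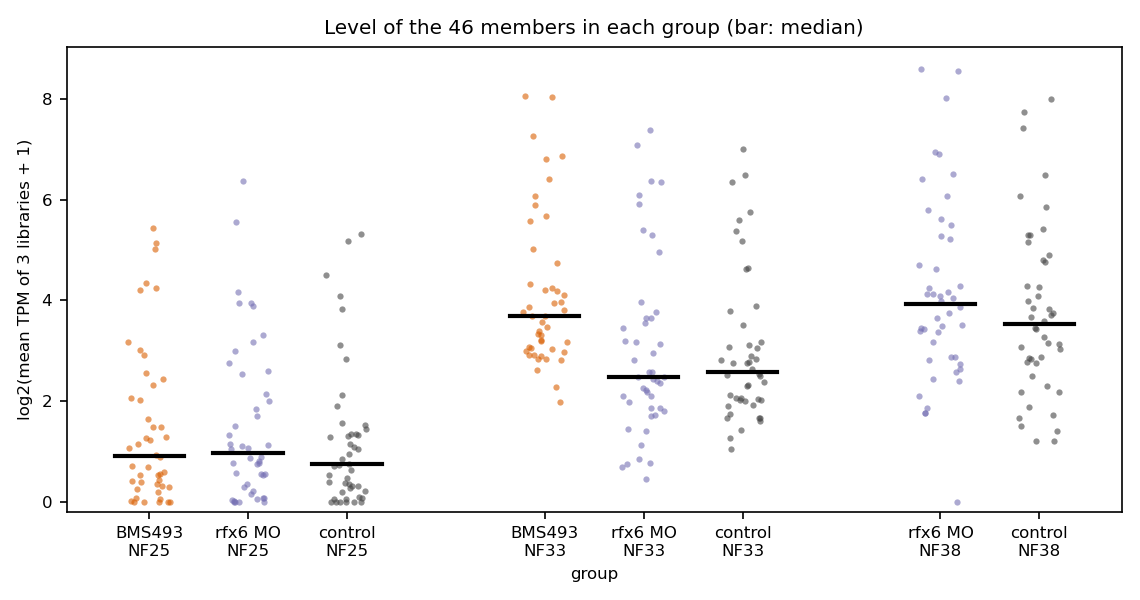
Level of each of the 46 members in each group, as log2(mean TPM of 3 libraries + 1), with BMS493 (orange), rfx6 morphants (purple) and controls (grey) side by side at NF25, NF33 and NF38. Black bars are medians over members. The bars stand on the log2 scale. In TPM the medians were 12.0, 4.56 and 5.00 at NF33 and 14.2 and 10.6 at NF38, in the order of the groups.

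The values that chose the members are a description and carry no test. In controls the members stood a median 1.58 log2 units higher at NF33 than at NF25, with a range of 1.02 to 4.85. At NF33 the difference between BMS493 and control explants had a median of 1.05 and ran from 0.81 to 2.84, with 27 members at 1 or more. The difference between rfx6 morphants and controls had a median of 0.15 and ran from -2.14 to 0.78. It was above 0 for 26 members, and for 18 it lay between 0.3 and 0.8, so a part of the members also stood higher in morphants. It was -0.3 or less for 11 members, and 4 members stood at least 1 unit lower in morphants, although the choice set no lower limit. In TPM, 38 of 46 members had all 3 BMS493 libraries above all 3 controls at NF33, where 16.5% of all detected genes did so in this direction.

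XBXL10_1g39168 had the highest difference under BMS493. Its levels at NF33 were 45.04, 48.54 and 47.87 TPM in BMS493 explants, 3.53, 3.37 and 3.69 TPM in morphants, and 5.30, 4.24 and 7.66 TPM in controls. The BMS493 libraries stood far above all others, and morphants lay below every control. At NF25 it had 3.07, 3.37 and 3.14 TPM in BMS493 explants, 0.77, 0.61 and 0 TPM in morphants, and 1.24, 1.05 and 2.36 TPM in controls, so the same order held at a lower level and without overlap. At NF38 it had 2.54, 1.73 and 3.57 TPM in morphants and 3.45, 4.17 and 4.16 TPM in controls, where the groups overlapped. The gene thus reached 47.1 ± 1.86 TPM in BMS493 explants at NF33, and no control library of any stage passed 7.66 TPM.

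The members with the highest levels in BMS493 explants at NF33 behaved differently from it. XBXL10_1g20790 had 265.72, 266.33 and 266.08 TPM in BMS493 explants, 169.73, 160.96 and 170.34 TPM in morphants, and 127.13, 129.61 and 125.66 TPM in controls at NF33. In NF38 controls it had 170.89, 173.23 and 171.44 TPM, so every BMS493 library at NF33 stood above every control library at NF38. XBXL10_1g12987 had 246.46, 288.55 and 255.83 TPM in BMS493 explants, 133.82, 135.50 and 134.82 TPM in morphants, and 90.64, 90.69 and 84.57 TPM in controls at NF33. Its NF38 controls held 207.96, 219.35 and 211.03 TPM, again all below the NF33 libraries with BMS493. For both genes morphants stood between the other groups at NF33 with no overlap.

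**Figure D2:**
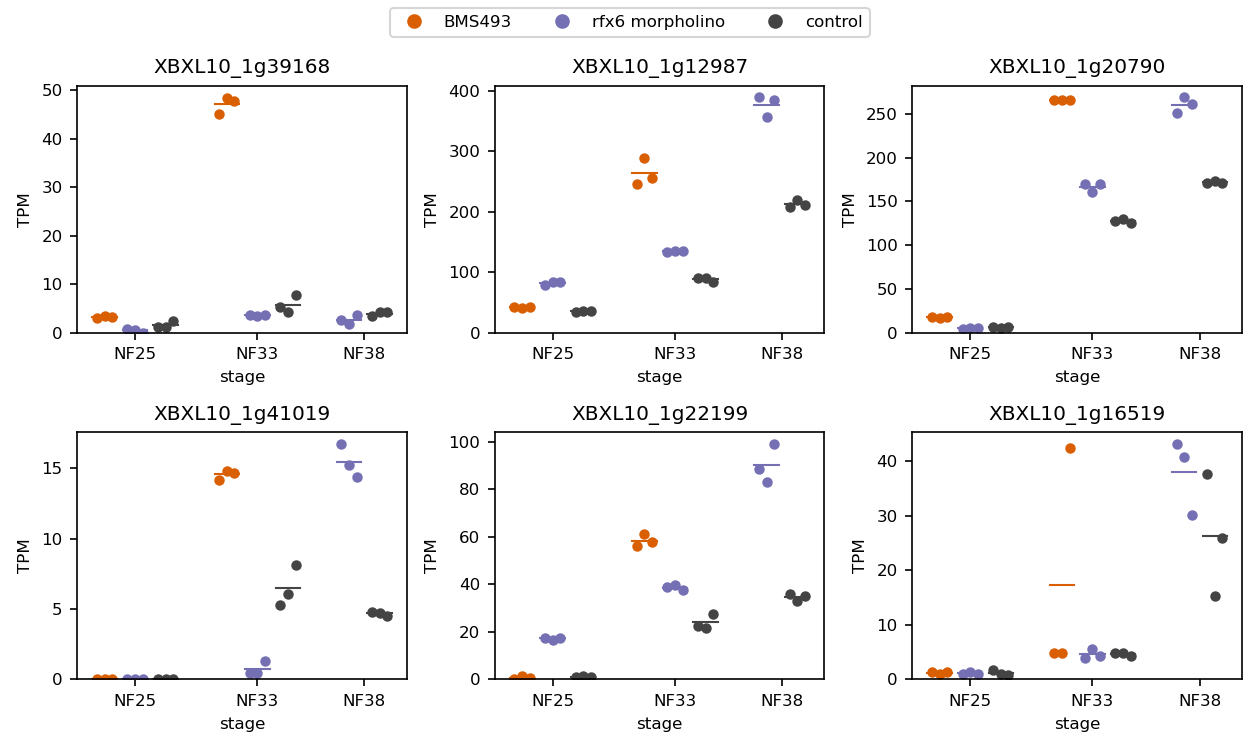
TPM in each library for 6 members, by stage, with BMS493 (orange) left of rfx6 morphants (purple) and controls (grey); points are libraries and lines are means of 3. XBXL10_1g39168 is high in the 3 BMS493 libraries at NF33 alone, XBXL10_1g20790 and XBXL10_1g12987 are also high in morphants at NF38, and XBXL10_1g16519 has 1 high BMS493 library at NF33.

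The TPM differences were set beside the counts from the same libraries, because TPM also depends on the transcript lengths that the quantification assigns. In an edgeR quasi-likelihood test of BMS493 against control at NF33, 43 members passed the filter on low counts and 40 of these were higher, with p-values adjusted by Benjamini-Hochberg across the 28313 genes tested and a threshold of 0.05. The same call was made for 12.8% of all genes tested, and since this contrast chose the members, nothing is read from the 40. The other 6 members were not called higher in counts or had too few to be tested. They were singled out after their values were seen, and a missed threshold does not show equal levels. XBXL10_1g16519, second in TPM difference, had 4.83, 4.74 and 42.52 TPM in BMS493 explants and 4.76, 4.82 and 4.29 TPM in controls at NF33. Its membership rests on BMS493 replicate 3. Its counts were 121, 113 and 113 in BMS493 explants and 118, 124 and 110 in controls, which differ by -0.01 on the log2 scale in edgeR (SE 0.14, adjusted p = 0.968).

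XBXL10_1g30370 had 3.53, 14.01 and 59.62 TPM in BMS493 explants and 35.07, 3.47 and 3.09 TPM in controls at NF33, which overlap. Its log2 fold change in counts was 0.32 (SE 0.14, edgeR unadjusted p = 0.0304, adjusted p = 0.0899). XBXL10_1g42791 had 10.42, 11.66 and 10.36 TPM in BMS493 explants and 2.64, 11.80 and 2.71 TPM in controls, where counts differed by -0.06 log2 units (SE 0.26, edgeR adjusted p = 0.892). These 3 belong to 8 members whose TPM for a given CPM (counts scaled to library size) moved over 1.5-fold among the 6 BMS493 and control libraries at NF33. The move was 9.93-fold for XBXL10_1g16519, 14.4-fold for XBXL10_1g30370 and 4.96-fold for XBXL10_1g42791. A part of assigned transcript length in this was not tested.

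The 3 members outside the count test held almost no reads. XBXL10_1g7585 and XBXL10_1g7586 have equal TPM in every library and 1 count each over all 24 libraries. Their 11.12 TPM in BMS493 replicate 1 at NF33 stands beside that 1 count, and their 8.58 TPM in replicate 3 beside a count of 0. XBXL10_1g32570 had 31 counts over 24 libraries, of which 9 were in BMS493 explants and 4 in controls at NF33. The comparisons below were repeated without the 6 members not called higher in counts with BMS493 at NF33, the 3 untested ones included. With 40 tested, the counts of members higher and lower stayed at 16 and 0, 16 and 6, and 14 and 15 in the comparisons of NF25 groups with each other, and the moved counts stand with their comparisons.

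The same rule was also run on 2 replicates, and the third was read for the genes so chosen, in which it took no part. The rule applied without replicate 1 chose 50 genes, and in replicate 1 their BMS493 minus control difference at NF33 had a median of 0.99 log2 units. It was above 0 in 48 and at least 0.8 in 36 of the 50, against 4.57% of the 2252 rising genes chosen with the same replicates. Without replicate 2 there were 49 genes with a median of 0.88 in the replicate left out, 44 above 0 and 30 at 0.8 or more (3.69% of rising genes). Without replicate 3 there were 44 with a median of 1.00, 38 above 0 and 30 at 0.8 or more (4.21%). Of the 46 members, 27 were chosen in all 3 of these lists, so the list itself moved with the replicates used. In the order above, the lists shared 37, 37 and 32 genes with the members. All 3 replicates helped to choose the 46, so these values describe the lists and are no test of the members.

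**Figure D3:**
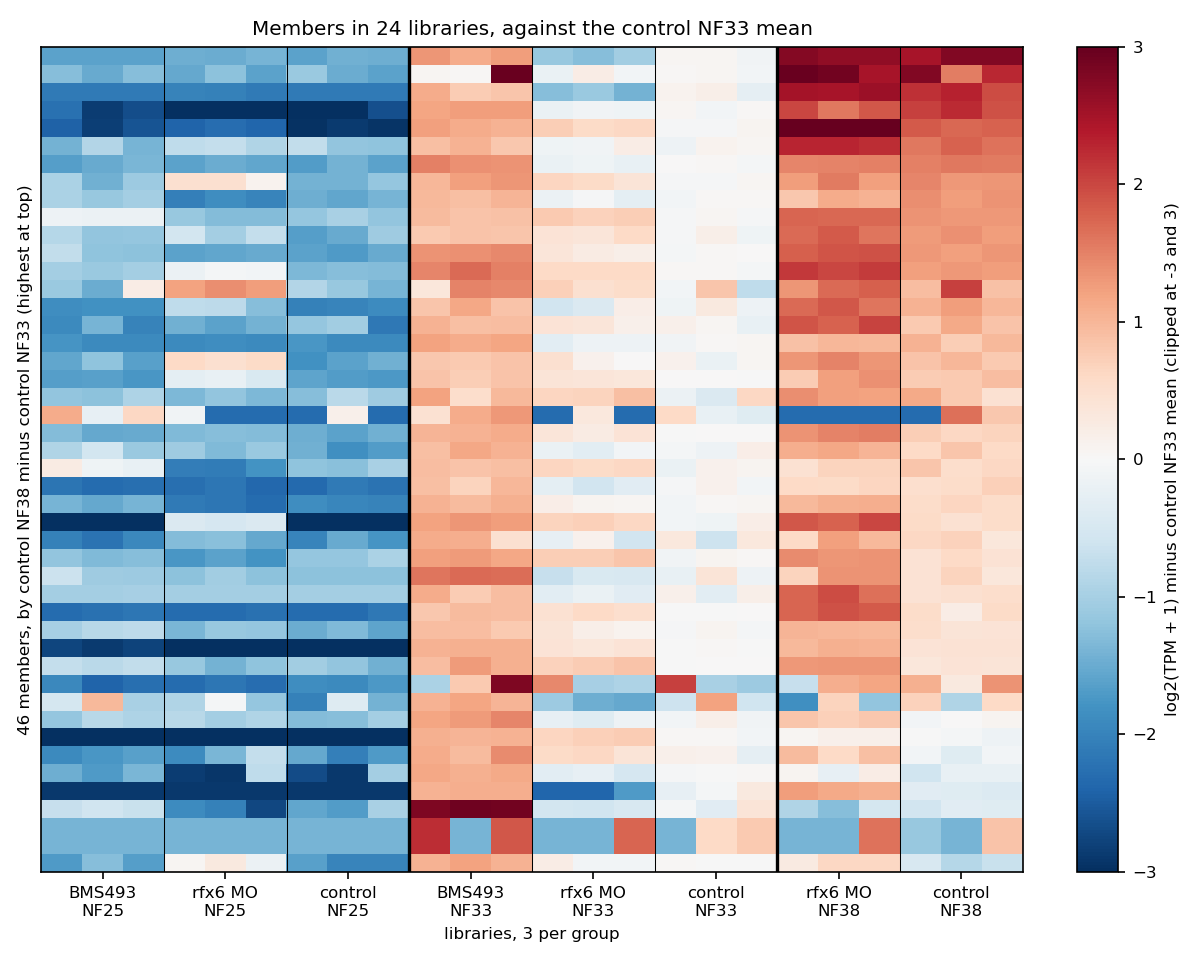
Colour gives log2(TPM + 1) of each member (46 rows) in each of 24 libraries (columns, BMS493, rfx6 morphants and controls from left to right within each stage) minus its control NF33 mean, clipped at -3 and 3. Rows run from the member highest above NF33 in NF38 controls to the lowest. BMS493 libraries at NF33 are mostly above 0, as are NF38 libraries, and a few rows hold single libraries that stand apart.

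After NF33 the members took different courses in controls, which are given without a test since the same controls chose them. Relative to NF33, 15 members stood at least 1 log2 unit higher at NF38 and 31 lay within 1 unit, of which 8 were below NF33. For the 15 members that went on climbing, the difference between BMS493 at NF33 and controls at NF38 had a median of -0.42 log2 units and was above 0 in 2, XBXL10_1g12987 and XBXL10_1g999, the second named after its values were seen. For the 31 others the median was 0.63 and 29 were above 0. Over all 46 members it was above 0 in 31, at least 1 in 10 and at most -1 in 2. Since the NF38 controls divided the members, a difference of this sign between the classes is partly fixed by the division, and stage and batch tag coincide.

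**Figure D4:**
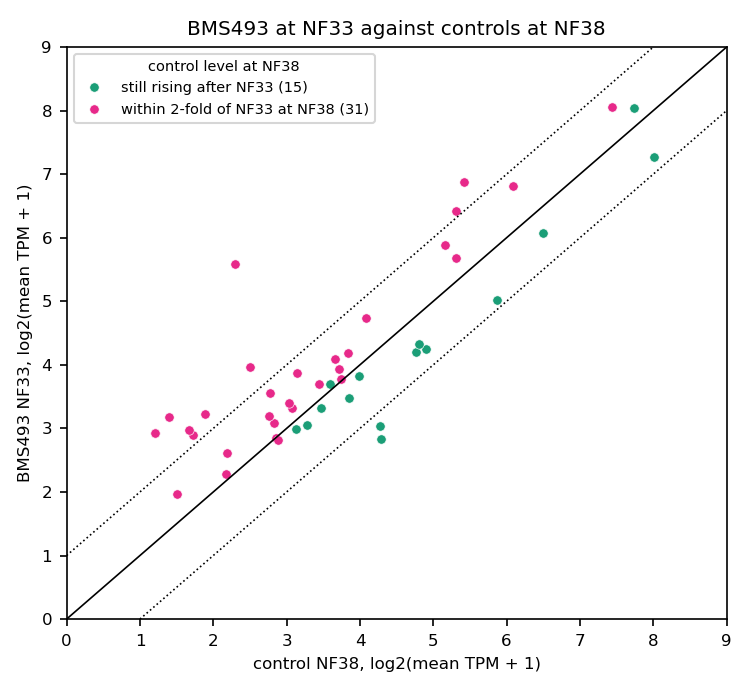
Each point is 1 of 46 members, with BMS493 at NF33 on the vertical and controls at NF38 on the horizontal axis, both as log2(mean TPM + 1); the solid line marks equal levels and dotted lines 2-fold. The 15 members still climbing after NF33 in controls (green) lie mostly under the solid line, and 29 of the 31 others (pink) lie above it.

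The BMS493 libraries at NF25 took no part in the choice, while the NF25 controls did, and were required to be low. At this stage 16 of 43 members tested were higher in BMS493 explants and 0 were lower (edgeR adjusted p under 0.05). The background was 16.1% higher and 14.8% lower among all genes tested. Among the other rising genes 34.0% were higher and 8.57% lower, close to the members' 37.2% higher. At an unadjusted p under 0.05 the members gave 17 higher and 0 lower, and 11 of the 16 were at least 2-fold higher. Of all 28313 genes tested 1085 were called higher by at least 2-fold, as were 319 of 2159 other rising genes. DESeq2 called 16 higher and 0 lower, and limma called 12 and 0 on log2(TPM + 1) and 14 and 1 on log2(TPM + 0.1). The median log2 fold change was 0.44 for members, 0.29 for other rising genes and 0.01 for all genes. Low counts limit this comparison. Of all 46 members, 13 had under 10 counts in every BMS493 and control library at NF25, the 3 untested ones included.

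XBXL10_1g1116 had 0.69, 0.89 and 0.94 TPM in BMS493 explants and 0.19, 0.33 and 0.12 TPM in controls at NF25. The groups did not overlap, and the log2 fold change was 2.05 (SE 0.30, edgeR adjusted p = 2.96e-08). XBXL10_1g29611 had 12 counts over the 3 BMS493 libraries and 0 over the 3 controls, which against a floor of 3 counts over the group is at least 3.32-fold higher (edgeR adjusted p = 0.00316). Its TPM was 0.50, 0.13 and 0.11 in BMS493 explants and listed at 0 in every control. With limma on log2(TPM + 1) its adjusted p was 0.213, the highest of its alternatives, which began at 0.00101. XBXL10_1g20790 was already higher at NF25, with 18.12, 16.55 and 17.67 TPM in BMS493 explants and 6.10, 5.72 and 6.54 TPM in controls (log2 fold change 1.56, SE 0.08, edgeR adjusted p = 1.06e-26). XBXL10_1g12987 differed less, with 43.18, 40.40 and 42.95 TPM in BMS493 explants and 34.11, 35.83 and 35.39 TPM in controls (log2 fold change 0.32, SE 0.07, edgeR adjusted p = 2.05e-04).

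In rfx6 morphants at NF25, 16 of 43 members (37.2%) were higher than in controls, against 18.0% of all genes tested and 18.4% of other rising genes. Another 6 of 43 were lower, against 16.6% of all genes and 18.1% of other rising genes. The number lower moved with the scaling, as given below, so no difference from these shares is read from it. At least 2-fold, 11 members were higher and 4 lower, against 1228 and 760 of all 28313 genes tested. Among 2159 other rising genes tested, 178 were higher and 156 lower to that extent. With library totals in place of TMM (trimmed mean of M-values) scaling, which moved fold changes here by -0.10 log2 units, 15 were higher and 10 lower. The median log2 fold change was 0.22 for members and 0.00 for other rising genes and for all genes. As above, the NF25 controls took part in the choice and were required to be low.

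XBXL10_1g16327 had 3.36, 4.16 and 2.71 TPM in morphants and 0.36, 0.07 and 0.06 TPM in controls at NF25 (log2 fold change 4.41, SE 0.38, edgeR adjusted p = 1.94e-16). XBXL10_1g36807 had 1.42, 1.36 and 0.68 TPM in morphants and 0, 0.04 and 0.11 TPM in controls (log2 fold change 4.32, SE 0.47, edgeR adjusted p = 4.15e-12). In both, every morphant library stood above every control, from levels near 0. The controls held 8 counts for the first gene and 4 for the second, so both SE are rough. XBXL10_1g39168, given above, was lower in morphants (log2 fold change -1.71, SE 0.51, edgeR adjusted p = 0.00743), from 15 counts in morphants and 45 in controls. In edgeR it was no longer past the threshold without morphant replicate 3 (adjusted p = 0.0705) or control replicate 3 (adjusted p = 0.104), in a range of 4.18e-04 to 0.104 over its alternatives. XBXL10_1g42837 had 0.11, 0.14 and 0.23 TPM in morphants and 0.28, 0.70 and 0.37 TPM in controls (log2 fold change -1.33, SE 0.48, edgeR adjusted p = 0.0303). Its call was lost without morphant replicate 1 (0.120), morphant replicate 2 (0.0845) or control replicate 2 (0.270), in a range of 9.06e-04 to 0.270.

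At NF38, where the morphants took no part in the choice, most members stood higher in morphants. Of 43 tested, 31 were higher in morphants than in controls and 2 lower (edgeR adjusted p under 0.05). Among all genes tested 25.4% were higher and 21.7% lower, and among other rising genes 27.1% were higher and 35.9% lower. The members' median log2 fold change was 0.61, that of other rising genes -0.08 and that of all genes 0.01. The members and the other rising genes already differed at NF33, in groups that chose the members. There the morphant minus control difference had a median of 0.15 log2 units for members and -0.44 for other rising genes. Whether the difference at NF38 goes beyond the earlier one was not tested. In TPM, 26 of 46 members had all 3 morphant libraries above all 3 controls, against 19.9% of genes detected. The NF38 controls entered the choice only through the condition on the fall after NF33. Of the 31, 11 were at least 2-fold higher. Over all genes tested this held for 2550 of the 7203 called higher, a similar share. The 31 included 10 members still climbing in NF38 controls and 21 others. With limma on log2(TPM + 0.1) the count was 20. Without the 6 members not called higher in counts at NF33, the result was 30 higher and 1 lower of 40. The rule with a pseudocount of 0.1 chose more genes, of which 92 of 195 tested were higher and 20 lower, so most of those were not higher.

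XBXL10_1g41019 had 16.74, 15.25 and 14.41 TPM in morphants and 4.79, 4.74 and 4.52 TPM in controls at NF38 (log2 fold change 1.78, SE 0.19, edgeR adjusted p = 2.2e-12). At NF33 the order was the opposite, with 0.41, 0.43 and 1.26 TPM in morphants and 5.27, 6.05 and 8.11 TPM in controls, the lowest morphant difference of all members (-2.14). With BMS493 at NF33 it had 14.21, 14.83 and 14.68 TPM, and it was listed at 0 TPM in all 9 libraries of NF25. The NF33 values chose the members and carry no test. XBXL10_1g36647 had 5.80, 6.86 and 5.39 TPM in morphants and 1.74, 1.85 and 1.92 TPM in controls at NF38, without overlap (log2 fold change 1.76, SE 0.18, edgeR adjusted p = 1.39e-13).

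The pair that was lower at NF38 differed in how far TPM and counts agreed. XBXL10_1g448 had 8.99, 11.31 and 10.70 TPM in morphants and 13.90, 12.66 and 13.63 TPM in controls, all morphants below all controls (log2 fold change -0.33, SE 0.08, edgeR adjusted p = 2.57e-04). XBXL10_1g42791, a member whose counts did not follow its TPM at NF33, had 0.55, 7.89 and 1.44 TPM in morphants and 8.05, 1.97 and 7.42 TPM in controls. Its groups overlap in TPM, while its counts were lower in morphants (log2 fold change -0.996, SE 0.29, edgeR adjusted p = 0.00346). The highest-level members were higher in morphants at NF38. XBXL10_1g12987 had 390.87, 356.27 and 384.54 TPM in morphants against 207.96, 219.35 and 211.03 TPM in controls (log2 fold change 0.88, SE 0.05, edgeR adjusted p = 2.76e-19). XBXL10_1g20790 had 251.24, 269.13 and 261.91 TPM in morphants against 170.89, 173.23 and 171.44 TPM in controls (log2 fold change 0.65, SE 0.04, edgeR adjusted p = 4.43e-23).

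The members called at NF25 were set beside those called in NF38 morphants, in comparisons with no library in common. Of all 43 members tested, 72.1% were higher in morphants at NF38, so a large shared part is given by that share alone. Of the 16 members higher in morphants at NF25, 15 were among the 31 higher in morphants at NF38, which is 93.8% of the first and 48.4% of the second list. Of the 21 members not called in morphants at NF25, 13 were among the 31, as were 3 of the 6 lower ones. For other rising genes, of which 27.1% were higher at NF38, the shared part was 167 genes, 42.1% of the NF25 and 28.5% of the NF38 list. For all genes it was 2603, 51.0% of the NF25 and 36.1% of the NF38 list. Of the 16 members higher with BMS493 at NF25, 13 were among the 31, 81.2% of the first and 41.9% of the second list. Of the 27 not called with BMS493, 18 were among the 31 as well, and whether these shares differ was not tested. For other rising genes this was 278 (37.9% and 47.4%) and for all genes 1958 (42.9% and 27.2%).

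**Figure D5:**
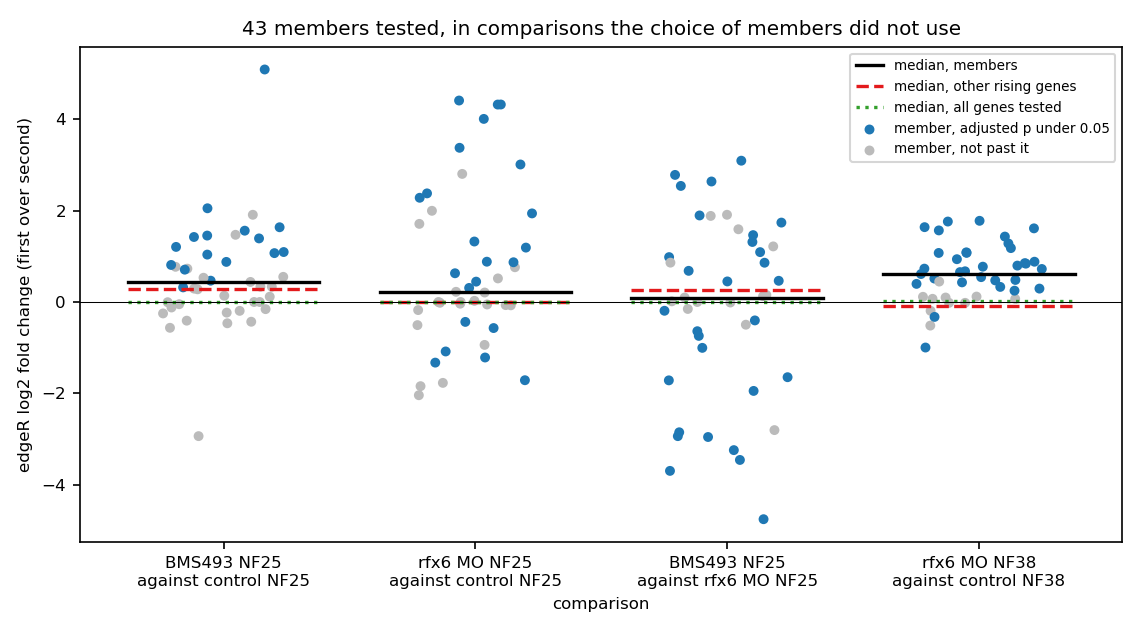
edgeR log2 fold changes of the 43 members tested in 4 comparisons, the group named first over the one named second. The choice of members used none of these comparisons, but it did use the NF25 and NF38 controls. Blue points passed an adjusted p under 0.05 and grey ones did not; bars are the medians of members (black), other rising genes (red, dashed) and all genes (green, dotted). At NF38 the members' median of 0.61 lies above the -0.08 of other rising genes. At NF25 the members' fold changes spread in both directions, though with BMS493 against control 16 passed as higher and 0 as lower.

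Set directly against each other at NF25, the treatments divided the members. BMS493 explants were higher than rfx6 morphants in 14 members and lower in 15 of 43 tested, against 21.5% and 21.6% of all genes tested. Among other rising genes 36.3% were higher and 12.8% lower. At least 2-fold, 9 members were higher and 11 lower, against 1452 and 1535 of all 28313 genes tested. Among 2159 other rising genes tested, 364 were higher and 129 lower to that extent. The median log2 fold change was 0.10 for members against 0.25 for other rising genes. XBXL10_1g39168, given above, was higher with BMS493 (log2 fold change 2.78, SE 0.42, edgeR adjusted p = 5.5e-07).

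XBXL10_1g6784 had 8.77, 6.52 and 6.06 TPM with BMS493 and 0.96, 0.94 and 1.40 TPM in morphants at NF25 (log2 fold change 2.64, SE 0.16, edgeR adjusted p = 1.8e-23). Its controls lay between, at 2.60, 2.46 and 3.18 TPM. XBXL10_1g22199 went the other way, with 0.24, 1.22 and 0.47 TPM with BMS493 and 17.45, 16.48 and 17.37 TPM in morphants (log2 fold change -4.75, SE 0.24, edgeR adjusted p = 3.55e-28). Its controls held 0.73, 1.32 and 0.70 TPM, so the high level was that of the morphants. At NF33 the same gene had 55.95, 61.30 and 57.75 TPM with BMS493 and 38.63, 39.68 and 37.35 TPM in morphants, against 22.51, 21.55 and 27.58 TPM in controls. XBXL10_1g9577 rests on few reads, with 0 counts with BMS493 and 4 in morphants, which is at least 1.45-fold lower against a floor of 3 counts (edgeR adjusted p = 0.0411). That call was lost in 8 of its 14 alternatives, among them each left-out library other than morphant replicate 2, with adjusted p between 0.00123 and 0.218 over all of them.

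The members also rose in morphants, where 42 of 43 members were higher at NF38 than at NF25 and 0 were lower, at the adjusted and at the unadjusted p under 0.05, with 40 at least 2-fold higher. DESeq2 and both limma fits also called 0 lower. The background was 42.3% higher and 36.5% lower over all genes, and 97.6% of other rising genes were higher. At least 2-fold, 7403 of all 28313 genes tested and 2011 of 2159 other rising genes were higher. The median log2 fold change was 3.50 for members and 2.96 for other rising genes. The member not called was XBXL10_1g42791, named after its values were seen. Without the 6 members not called higher in counts at NF33, 40 of 40 were higher. Without morphant NF25 replicate 3 the number lower was 1 in place of 0. XBXL10_1g36647 had 760 counts in morphants at NF38 and 0 at NF25, at least 203-fold higher, and XBXL10_1g41019 had 542 and 0, at least 145-fold higher, each against a floor of 3 counts over the group. The labels' batch tag repeats the stage, so stage and batch cannot be told apart here.

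The effect of the rfx6 morpholino changed between NF25 and NF38 for about as many members in each direction. It was higher at NF38 than at NF25 in 12 members and lower in 10 of 43 tested (27.9% and 23.3%). Among all genes the shares were 18.7% and 14.1%, in a test that runs across batch tags. The NF25 and NF38 controls in this test also helped to choose the members. Among other rising genes 17.9% were higher and 20.6% lower. Higher and lower here give the change of the effect, not morphants against controls. For XBXL10_1g16327 the log2 fold change was 4.41 at NF25 and 1.64 at NF38, a smaller excess. For XBXL10_1g42791 it was 0.52 at NF25 (not called) and -0.996 at NF38. Both examples were picked after their values were seen. Without the 6 members not called higher in counts at NF33, the effect was higher in 12 and lower in 9 of 40. The median change was 0.35 log2 units for members and -0.02 for other rising genes, and the sign of the members' median turned when the rule was run with a pseudocount of 0.1 (-0.23).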

How the data were processed

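The authors deposited 1 table of estimated counts (stored as whole numbers, rounded here) and 1 table of TPM for 24 libraries, from stranded mRNA libraries (per the labels). RSEM 1.3.0 and Bowtie2 stand in the submitters' processing notes, with no role stated. Genome build, annotation and strand setting: not given in the sources used here. Of 1067472 values, 6245 pair a TPM above 0 with a count of 0. Reads without an identifier held 0% of counts. Library names in the descriptions matched the columns; for rfx6 NF33 replicates 2 and 3 a further description line repeats replicate 1, and the title was followed.

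Members were found in the TPM table by the stated rule. Members, comparisons and lists were chosen with earlier results of these data known. The count test was edgeR 4.0.16 under R 4.3.3 (filterByExpr with minimum count 10 and minimum total count 15, TMM scaling, glmQLFit with robust estimates and 1 mean per group over all 24 libraries, glmQLFTest), with Benjamini-Hochberg adjustment over 28313 genes. Each SE given is the size of the log2 fold change divided by the square root of the edgeR F statistic. It was not estimated directly and may be too small where a group has few counts. The count test was also run on simulated counts, with the same spread for every gene, no stage differences and no genes of low total count. These settings differ from the data, and no result here rests on that run. Alternatives used limma 3.58.1, DESeq2 1.42.0, other scalings, filters and rules, and left-out libraries. The labels call the 3 pools of a group biological replicates but name no parents, so p-values measure the spread between pools. Samples with the same replicate number did not deviate together: in 0 of 28 pairs of groups was every correlation over 0.1 (range -0.177 to 0.115).

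Genes named are, for each comparison, the 2 members at most with the largest log2 fold change in each direction among those past the threshold without overlap in TPM, the 2 with the highest BMS493 difference, the 2 with the highest BMS493 NF33 level and the genes beside the limit. Exceptions are marked as chosen after their values were seen. Pathway and cell type lists were not run, since no identifier matched a symbol.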

Additional observations from a re-analysis of the deposited data

Results flagged for a closer look

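By the edgeR test of the change itself, the effect of the rfx6 morpholino was higher at NF38 than at NF25 in 12 of 43 members. This is 27.9%, against 18.7% of all genes and 17.9% of other rising genes. The effect was lower at NF38 than at NF25 in 10 members by the same test. This is 23.3%, against 14.1% of all genes, and near the 20.6% of other rising genes. Both counts run across the batch tags that go with stage, and both use the NF25 and NF38 controls, which helped to choose the members. Higher and lower here give the change of the effect, not morphants against controls.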

How the results depend on the processing

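Membership depended on the rule: 215 genes with a pseudocount of 0.1 (44 shared), 27 with a BMS493 limit of 1.0, 34 with an rfx6 limit of 0.5, 54 on TMM-scaled CPM (32 shared) and 44 to 50 with a replicate left out. With the pseudocount of 0.1, 195 genes were tested and the calls, higher and lower, were 48 and 4 for BMS493 NF25 against control, 60 and 12 for rfx6 NF25 against control, and 92 and 20 for rfx6 NF38 against control, so under that rule most genes chosen were not higher at NF38 (all genes tested: 16.1% and 14.8%, 18.0% and 16.6%, 25.4% and 21.7%). They were 40 and 54 for BMS493 against rfx6 NF25, 184 and 1 for rfx6 NF38 against rfx6 NF25, and 27 and 46 for the change of the rfx6 effect, whose median reversed to -0.233. With the limit of 1.0, 25 members were tested in place of 43. Of these 25, 9 were higher for rfx6 NF25, 19 higher and 0 lower for rfx6 NF38, and 9 lower for BMS493 against rfx6 NF25. For rfx6 NF38 against NF25 25 were higher, and the change of effect gave 6 and 5.

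For other settings the cause was not tested. BMS493 NF25 against control gave 1 lower member with total library size and with limma on log2(TPM + 0.1), and 13 to 16 higher and 0 to 1 lower with a library left out. The single lower call came without BMS493 replicate 1, BMS493 replicate 2 or control replicate 1. For rfx6 NF25, total library size gave 10 lower, and left-out libraries 14 to 16 higher and 4 to 7 lower. For rfx6 NF38 the lower calls were 4 with another TMM library, 5 with no filter and 1 with either limma fit. They were 1 without the members not called higher in counts at NF33 (added after seeing the data). With limma on log2(TPM + 0.1) 20 were higher, and left-out libraries gave 30 to 31 higher and 2 to 3 lower. For rfx6 NF38 against NF25, left-out libraries gave 0 to 1 lower, and library totals moved fold changes by 0.19 log2 units without moving the counts. Among single genes, 14 values lost their call and 0 reversed.

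Samples did not pair by replicate number. A replicate block left the counts at 16 and 0, 16 and 6, 31 and 2, 14 and 15, 42 and 0, and 12 and 10 in the order above. Under about 10 counts per library, as in 11 of all 46 members throughout NF25, differences were not detectable at this depth unless large.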
